A study of Mus musculus with 18 samples.

Results

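The genes examined were 9 genes of the major histocompatibility complex (MHC) class II presentation pathway, taken by symbol from the 32285 genes of the count matrices: H2-Aa, H2-Ab1, H2-Eb1, Cd74, Ciita, H2-DMa, H2-DMb1, H2-Oa and H2-Ob. All 9 were listed. They were measured in single cells from the dorsal dermis of 18 wild-type (WT) male C57BL/6J adult mice in telogen, the resting phase of the hair cycle, kept under 12 h of light and 12 h of dark. Mice were collected at 6 zeitgeber times (ZT2, ZT6, ZT10, ZT14, ZT18 and ZT22, in hours after lights on), with 3 mice at each. No group carried a treatment or a genetic change, so the groups differed in the time of collection alone, and the replicate number followed the day of collection. The dermis was digested with collagenase, live cells were sorted with a viability dye, and each mouse gave 1 droplet library in which transcripts were counted as unique molecular identifiers (UMIs) read from their 3′ ends.

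MHC class II molecules show peptides from proteins that a cell has taken up to CD4 T cells. H2-Aa and H2-Ab1 encode the alpha and beta chains of I-A, and H2-Eb1 encodes the beta chain of I-E. Cd74 encodes the invariant chain, which occupies the groove of a new class II molecule and guides it to the endosome. There H2-DM, a dimer of the H2-DMa and H2-DMb1 products, exchanges the remnant of the invariant chain for a peptide, and H2-O, a dimer of the H2-Oa and H2-Ob products, restrains H2-DM. Ciita encodes the transactivator that switches these genes on from their promoters, where it is held by a complex of RFX, CREB and NF-Y proteins bound to the X and Y boxes. Dendritic cells, macrophages and B cells are the professional users of the pathway, and in the dermis dendritic cells and macrophages carry most of it.

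Promoter sequence is shown because these genes are commonly described as sharing the X and Y boxes through which CIITA acts. Windows ran from 250 bases before to 50 bases after the start of transcription (RefSeq, GRCm38.p6). H2-Ab1 and Ciita had no entry, and Cd74 was left out of the search by choice. Windows of the remaining 6 of the 9 genes were used. The windows of these genes were searched in the direction of transcription for GATTGG, the core of the Y box bound by NF-Y. GCAAC, a core of the X box bound by RFX, was sought 15 to 40 bases upstream of it. The shares over all 32851 promoter windows come from a wider search, on both strands. GATTGG alone was in 16.1% of them, GCAAC alone in 35.2% and the ordered pair in 0.435%, which is 143 windows. All 6 genes held GATTGG, and 4 of them, H2-Aa, H2-Eb1, H2-Oa and H2-Ob, held the pair. Stretches of 76 bases around the match follow, 5′ to 3′ in the direction of transcription, with the matches in capitals; H2-DMb1 held GATTGG without GCAAC.
H2-Aa, chr17:34287857-34287932, minus strand: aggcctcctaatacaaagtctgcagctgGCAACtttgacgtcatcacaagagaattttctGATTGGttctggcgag
H2-Eb1, chr17:34305747-34305822, plus strand: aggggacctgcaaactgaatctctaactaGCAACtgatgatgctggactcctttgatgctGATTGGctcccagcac
H2-Oa, chr17:34092275-34092350, plus strand: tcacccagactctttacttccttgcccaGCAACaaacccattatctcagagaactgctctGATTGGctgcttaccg
H2-Ob, chr17:34238787-34238862, plus strand: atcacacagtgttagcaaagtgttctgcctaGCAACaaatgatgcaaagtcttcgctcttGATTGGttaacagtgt
H2-DMb1, chr17:34153069-34153144, plus strand: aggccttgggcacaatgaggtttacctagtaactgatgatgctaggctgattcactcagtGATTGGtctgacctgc

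The spacing between the matches was 27 bases in H2-Aa, 26 in H2-Eb1, 27 in H2-Oa and 24 in H2-Ob. GATTGG began 49 bases before the start of H2-Aa, 60 before H2-Eb1, 44 before H2-Oa, 58 before H2-Ob and 62 before H2-DMb1. H2-DMa held it only before a second annotated start, at 199 bases. A match is a description of these letters, and where it is missing only these letters were not found on this strand of this window.

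Each library held 4850221 to 40827442 UMIs (median 17295072.5) over its barcodes, and 16877 of 23990 barcodes were kept as cells, 177 to 1998 per library. Of the kept cells 71.9% were fibroblasts. Clusters were named from marker genes, and neither the clustering nor the markers used any of the 9 genes. Naming gave 12142 fibroblasts, 1623 macrophages, 351 monocytes, 259 dendritic cells and 736 skeletal muscle cells, the last taken as a type not known to make class II molecules. UMIs were summed over the cells of a type in each library with at least 10 of them, which were 18 libraries for fibroblasts and macrophages, 12 for dendritic cells, 6 for monocytes and 17 for muscle cells. The library ZT2 replicate 3 held 158 of the monocytes, and ZT14 replicate 1 held 67 of them with 92 of the 147 neutrophils. The libraries ZT6 replicate 2 and ZT10 replicate 3 shared 89 cell barcodes, against at most 4 in any other pair, and none of these was a kept cell of ZT6 replicate 2. Without both of the latter libraries each comparison below called as many of the 9 genes as with them.

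A level below is the number of UMIs of a gene per 10000 UMIs of the same cells. Each transcript is counted once from its 3′ end whatever its length, so gene length does not scale the levels of different genes. Other differences in how genes are counted, such as overlaps and close copies, remain in comparisons between genes. Dendritic cells had the highest level of each of the 9 genes among the 5 types, macrophages and monocytes came next, and fibroblasts and muscle cells were lower by more than a factor of 100 for the 4 abundant genes. Cd74 was the most abundant of the 9 in dendritic cells, macrophages and monocytes, followed by H2-Aa, and Ciita, H2-Oa and H2-Ob were the rarest. The log-scaled plot of levels by cell type shows this order library by library.

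**Figure D1:**
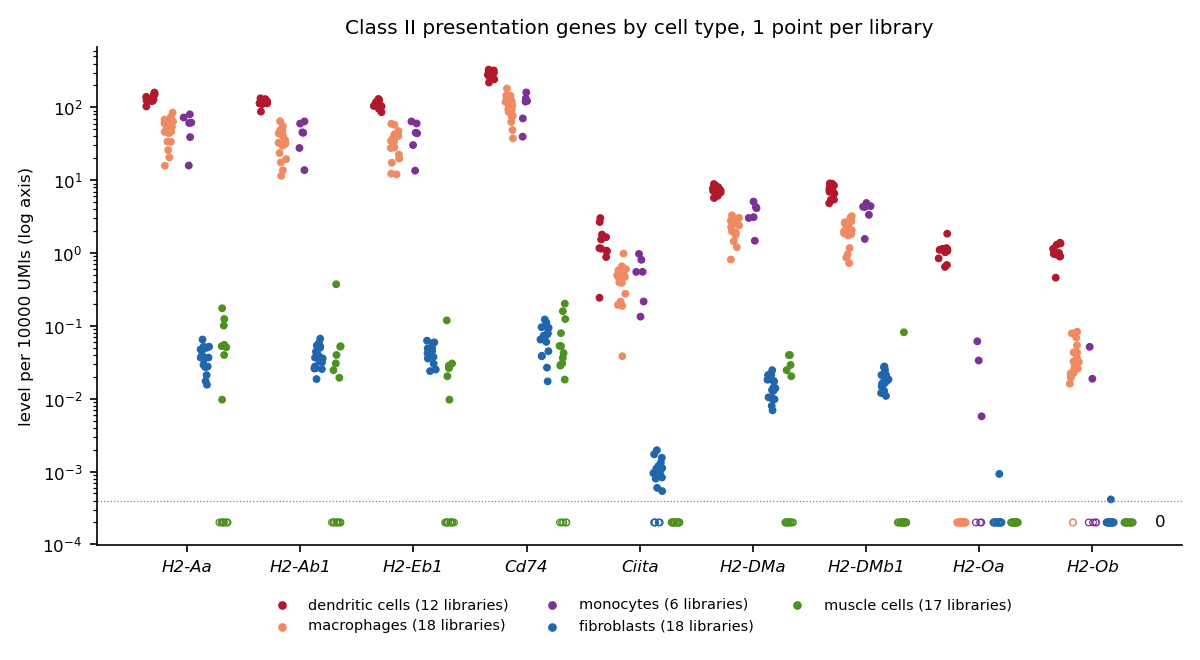
Level of each of the 9 genes (UMIs per 10000 UMIs, log axis) in each library of dendritic cells (12), macrophages (18), monocytes (6), fibroblasts (18) and muscle cells (17). Points are libraries, and open points at the floor are libraries with 0 UMIs. Dendritic cells lie above macrophages without overlap for every gene but Ciita, and H2-Oa is at 0 in all 18 macrophage libraries. The share of all genes without overlap is not given here.

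Cd74 had a level of 219.5 to 329.9 per 10000 UMIs in dendritic cells (median 278, mean 281 ± 32.6 SD, n = 12). In macrophages its level was 37.6 to 182 (median 101, mean 104 ± 36.6 SD, n = 18), and in monocytes 39.6 to 160.5 (median 121, mean 108 ± 44.2 SD, n = 6). Ranked among all genes by level, the invariant chain transcript was number 3 in dendritic cells, 6 in macrophages and 7 in monocytes. Every dendritic cell and 95.5% of macrophages had at least 1 Cd74 UMI.

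H2-Aa, the I-A alpha chain gene, had a level of 103 to 159.9 in dendritic cells (median 125, mean 131 ± 15.5 SD, n = 12). In macrophages it ran from 15.8 in ZT14 replicate 1 to 84.7 in ZT10 replicate 3 (median 49.9, mean 49.8 ± 18.7 SD, n = 18). In the 6 monocyte libraries the H2-Aa level was 61.1 in ZT2 replicate 3, 39.1 in ZT10 replicate 1, 72.7 in ZT10 replicate 2, 15.9 in ZT14 replicate 1, 80.3 in ZT14 replicate 3 and 61.8 in ZT18 replicate 2. The lowest dendritic cell library was above the highest macrophage and monocyte libraries, whose ranges overlapped throughout. ZT14 replicate 1, the library with the most neutrophils, was the lowest of both macrophages and monocytes.

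The chains that pair in I-A did not stand in the same ratio in each type. The H2-Ab1 level, for the I-A beta chain, was 0.902 ± 0.064 (SD) of the H2-Aa level in dendritic cells, 0.689 ± 0.044 in macrophages and 0.778 ± 0.075 in monocytes. Cd74 stood at 2.15 ± 0.20, 2.12 ± 0.16 and 2.01 ± 0.29 times H2-Aa in the same order, values that differed by less than their spread. H2-Eb1, the I-E beta chain gene, had a mean level of 109.6 ± 12.5 (SD) in dendritic cells, 33.9 ± 14.1 in macrophages and 42.9 ± 18.9 in monocytes.

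H2-DMa and H2-DMb1, the peptide exchange factor, were far below the class II chains and near each other. Their mean levels were 7.14 ± 1.02 (SD) and 7.20 ± 1.43 in dendritic cells, 2.28 ± 0.674 and 2.07 ± 0.766 in macrophages, and 3.52 ± 1.27 and 3.80 ± 1.20 in monocytes. The lowest dendritic cell libraries, at 5.70 for H2-DMa and 4.83 for H2-DMb1, were above the highest macrophage libraries at 3.30 and 3.21.

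H2-Oa and H2-Ob, which restrain H2-DM, had the largest differences of the 9 between dendritic cells and macrophages. H2-Oa had a level of 0.645 to 1.84 in dendritic cells (median 1.09, mean 1.07 ± 0.302 SD, n = 12) and no UMI in any of the 1623 macrophages. H2-Ob had a level of 0.459 to 1.39 in dendritic cells (median 0.988) and of 0 to 0.0832 in macrophages (median 0.0299), with 2 of 18 macrophage libraries at 0. After each cell was thinned to 3000 UMIs, 23.0% of dendritic cells and 0% of macrophages had an H2-Oa UMI, where 0 allows a share of up to 0.235% of cells with a UMI at this depth. Unthinned, the dendritic cell share was 43.6%, so this limit covers detection and not the share of cells that express the gene. Dendritic cells held 76.4% of all H2-Oa UMIs of kept cells and 56.7% of H2-Ob UMIs.

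Ciita, the transactivator gene, was low everywhere. Its level was 0.243 to 3.02 in dendritic cells (median 1.35, mean 1.49 ± 0.761 SD, n = 12), 0.0383 to 0.983 in macrophages (median 0.466, mean 0.439 ± 0.213 SD, n = 18) and 0.134 to 0.974 in monocytes (median 0.552, mean 0.539 ± 0.326 SD, n = 6). It was the only one of the 9 whose dendritic cell and macrophage ranges overlapped. The share of all genes without overlap is not given here, so this is a description. In the fit below 50.1% of all genes tested were called between these types. A Ciita UMI was found in 68.3% of dendritic cells and 29.9% of macrophages, and in 37.1% and 11.1% at 3000 UMIs per cell. In ZT14 replicate 1, where macrophage H2-Aa was lowest, macrophage Ciita was lowest as well.

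Dendritic cells were compared with macrophages in a fit over all genes with the library as a block. That fit took in monocytes, fibroblasts, T cells and muscle cells as well, from all libraries, and it also gave the other comparisons of types. Both dendritic cells and macrophages were held by 12 libraries, and libraries without both entered the fit too. All 9 genes were higher in dendritic cells, in a comparison where 20.7% of all genes tested were called in that direction. The median log2 difference of the 9 was 1.88, and it was the same with H2-Oa at its bound, against -0.23 over all genes tested. H2-Oa and H2-Ob did not pass the filter on low counts within macrophages, monocytes or fibroblasts alone. They entered through the fit over all types, in which dendritic cells hold most of their UMIs, so their calls add no support to the counts in this comparison and the next ones. H2-Ab1 was 3.93-fold higher (log2 1.97 ± 0.18 SE, adjusted p = 6.94e-15), H2-Aa 3.02-fold (1.60 ± 0.18, adjusted p = 1.38e-11), H2-Eb1 3.69-fold (1.88 ± 0.17, adjusted p = 1.08e-15) and Cd74 3.06-fold (1.61 ± 0.18, adjusted p = 9.52e-12).

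The genes of peptide exchange and of control differed by like or larger amounts. H2-DMa was 3.62-fold higher in dendritic cells (log2 1.85 ± 0.14 SE, adjusted p = 3.45e-18), H2-DMb1 4.05-fold (2.02 ± 0.15, adjusted p = 4.67e-19) and Ciita 3.54-fold (1.82 ± 0.18, adjusted p = 2.42e-12). H2-Ob was 32.9-fold higher (5.04 ± 0.22, adjusted p = 9.14e-26). H2-Oa, with 350 UMIs in dendritic cells against 0 in macrophages, was at least 777-fold higher when macrophages were set to a floor of 3 UMIs over all of them (adjusted p = 1.69e-22). The 12 macrophage markers summed to a level of 2.06 to 7.45 in dendritic cell libraries against 232 to 323 in macrophage libraries. The 10 dendritic cell markers summed to 1.15 to 4.86 in macrophages, where 2 of the 10 were detected, against 14.9 to 39.7 in dendritic cells.

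Dendritic cells were also higher than monocytes for 9 of 9 genes, with 10.6% of all genes called in that direction, but only 3 libraries held both types. H2-Aa was 2.28-fold higher (log2 1.19 ± 0.27 SE, adjusted p = 4.90e-04), Cd74 2.49-fold (1.32 ± 0.27, adjusted p = 1.18e-04) and H2-DMb1 1.90-fold (0.93 ± 0.23, adjusted p = 0.00109). H2-Ob differed by a log2 of 5.0 ± 0.44, and H2-Oa stood at 350 UMIs against 5, a ratio of 87.1 per UMI sequenced (95% counting interval 37.0 to 270.0). Ciita had a difference of 1.93-fold (0.95 ± 0.30, adjusted p = 0.0141), and it lost the call without ZT2 replicate 3 or without ZT14 replicate 3, with at least 20 cells per library (adjusted p = 0.0844) and with DESeq2 (adjusted p = 0.0760). DESeq2 also lost H2-Oa (adjusted p = 0.279) and called 7 of the 9.

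Macrophages and monocytes, neighbours in the order of levels, were both held by 6 libraries. They differed for 6 of 9 genes, lower in macrophages, with 16.3% of all genes called lower. H2-Oa was among the 6, and its call rested on a comparison with 0. H2-DMb1 was 2.13-fold lower in macrophages (log2 -1.09 ± 0.20 SE, adjusted p = 1.11e-05), H2-DMa 1.80-fold (-0.84 ± 0.20, adjusted p = 3.86e-04) and Ciita 1.83-fold (-0.87 ± 0.28, adjusted p = 0.0106). H2-Eb1 (-0.62 ± 0.22, adjusted p = 0.0204) and H2-Ab1 (-0.60 ± 0.24, adjusted p = 0.0439) were lower as well. H2-Aa (-0.41 ± 0.24, adjusted p = 0.196) and Cd74 (-0.30 ± 0.24, adjusted p = 0.368) were not separated from monocytes, with 95% intervals of -0.88 to 0.07 and -0.77 to 0.18. H2-Oa passed (adjusted p = 0.00228) with 5 UMIs in all monocytes against 0 in macrophages, and H2-Ob was at -0.04 ± 0.35 (adjusted p = 0.964).

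Most of these calls depended on the libraries and settings. Without ZT2 replicate 3 alone 3 genes were called. H2-Ab1 kept its call in 8 of the 18 fits that left out 1 library, H2-Eb1 in 14 and Ciita in 16, and H2-DMa and H2-DMb1 kept it in 18. Without both ZT2 replicate 3 and ZT14 replicate 1, the libraries with the most monocytes, 4 libraries with both types were left. Of the 9 genes 6 were called, but Ciita was no longer among them (-0.46, edgeR adjusted p = 0.470). H2-Ob, at 0 in the monocytes of all 4 libraries, was called higher in macrophages (edgeR adjusted p = 0.0280). With immune cells cut into finer clusters none of the 9 was called. Macrophage markers summed to a level of 19.7 to 78.0 in monocyte libraries, where 10 of the 12 were detected, and the part of this in the difference was not tested.

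Monocytes, in turn, were called higher than fibroblasts for 9 of 9 genes, with 27.0% of all genes called in that direction. The log2 difference was 10.51 ± 0.27 (SE) for H2-Aa, 10.57 for Cd74, 9.19 for Ciita, 7.83 for H2-DMa and 7.67 for H2-DMb1 (edgeR adjusted p from 2.43e-46 to 3.26e-05 over the 9, with both types in 6 libraries). Among the genes just listed, H2-DMa and H2-DMb1 had the smaller values. H2-Ob (6.62) and H2-Oa (5.05) were lower still. The calls of H2-Oa and H2-Ob rested on 1 UMI each in fibroblasts, against 5 and 13 in monocytes, and DESeq2 lost that of H2-Oa (adjusted p = 0.1001). Ciita had 24 UMIs in all fibroblasts and did not pass the filter on low counts within fibroblasts alone, so its call adds no support to this count.

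Macrophages were not uniform in their class II genes. Of the 8 macrophage clusters, 3 had Lyve1, a hyaluronan receptor of perivascular macrophages, or Timd4, a phosphatidylserine receptor of resident macrophages, among their leading genes, and they held 621 cells. H2-Aa had a level of 10.7 to 27.8 in these 3 clusters and of 57.4 to 75.6 in the other 5, which held 1002 cells. Cd74 had a level of 32.6 to 65.7 against 106 to 149.8. This division was made after the levels per cluster were seen, and its values are a description.

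In the 15 libraries with at least 10 cells on each side, 7 of the 9 genes were lower in the Lyve1 and Timd4 clusters in 15 of 15 libraries. H2-Aa had a level of 6.76 to 40.5 (median 18.8) in them and of 24.2 to 84.4 (median 72.4) in the other macrophages of the same libraries. H2-Eb1 had the largest median ratio of the 7, 5.59-fold, and Cd74 the smallest, 2.67-fold. Ciita had a mean level of 0.169 ± 0.101 (SD) against 0.572 ± 0.220, and the exchange factor genes were lower by a median of 3.33-fold for H2-DMa and 2.87-fold for H2-DMb1. H2-Ob was lower in 9 of the 15, and H2-Oa was at 0 on both sides. The share of all genes lower in 15 of 15 libraries is not given here, so the 7 genes are not set against it. The cells of the Lyve1 and Timd4 clusters were the deeper ones, with a median of 16605 UMIs against 11274.5, and 27.5% of them had no H2-Aa UMI, against 5.09% of the other macrophages.

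**Figure D2:**
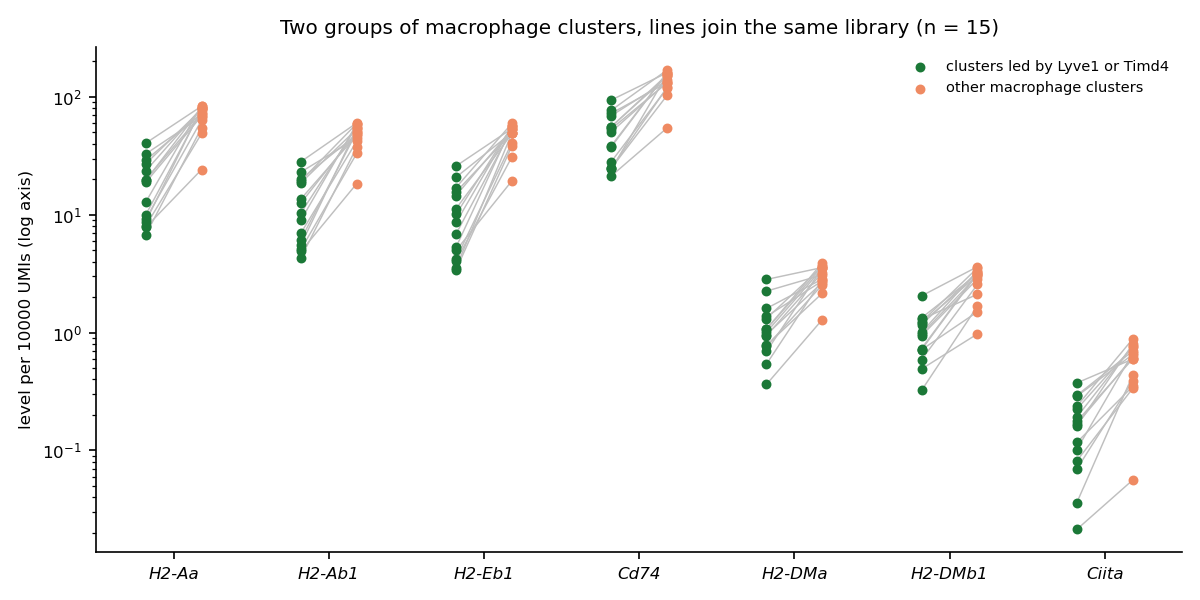
Level of 7 of the genes (UMIs per 10000 UMIs, log axis) in macrophage clusters led by Lyve1 or Timd4 (green) and in the other macrophage clusters (orange) of 15 libraries, with a line joining the 2 values of a library. Each gene is lower in the Lyve1 or Timd4 clusters in all 15 libraries.

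The share of macrophages in the Lyve1 and Timd4 clusters varied with the library, and the macrophage level of H2-Aa with it. The shares were 8.70% in ZT10 replicate 3 and 9.38% in ZT6 replicate 2, where the H2-Aa levels were 84.7 and 73.4. They were 66.7% in ZT18 replicate 1, 65.0% in ZT2 replicate 2 and 60.9% in ZT22 replicate 1, where the levels were 33.9, 33.7 and 20.6. ZT14 replicate 1 stood below the others, with a share of 45.6% and a level of 15.8.

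Across single macrophages, log-scaled values of H2-Aa moved together with H2-Ab1 (Pearson r = 0.959), H2-Eb1 (0.946) and Cd74 (0.936). The r was lower with H2-DMa (0.668) and Ciita (0.396), and lowest with H2-Ob (0.0831). In dendritic cells the r of H2-Aa was 0.818 with H2-Eb1 and -0.056 with Ciita. These r are descriptions across cells that share libraries and depth, and sparse genes such as Ciita give low values.

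Ciita and its target H2-Aa did not keep a constant ratio from cluster to cluster. The dendritic cells formed 3 clusters, described here, like the others, by genes from among their leading ones. The cluster led by Xcr1 and Clec9a, markers of conventional type 1 dendritic cells, had 121 cells with an H2-Aa level of 116 and a Ciita level of 2.23. The cluster led by Hamp, Wnt11, Il1b and Cd207 had 118 cells with 157 and 0.958, so H2-Aa was higher and Ciita lower. The 20 cells led by Ccl22, Fscn1 and Ccr7, genes of migrating dendritic cells, had 59.4 and 0.642, with H2-Ab1 at 27.3 and H2-DMb1 at 0.275.

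The same was seen outside dendritic cells. The macrophage cluster led by Hpgd and Pf4 had an H2-Aa level of 75.5 with Ciita at 0.840, and the cluster led by Hbegf and Ccl2 had 75.6 with Ciita at 0.219. Among monocytes, the 197 cells of the cluster led by Ly6c2 and Plac8 had 65.5 and 1.10, and the 154 cells led by Gpnmb, Chil3 and Vcan had 39.9 and 0.306. Of the former 62.9% came from ZT2 replicate 3, and of the latter 31.8% from ZT14 replicate 1. The 33 B cells had a low H2-Aa level, 25.6, with Ciita at 0.957 and the highest H2-Ob level of any named type, 3.48 (69 UMIs), beside H2-Oa at 1.11 (22 UMIs). Clusters pool the cells of all libraries, so these values have no replicate error.

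**Figure D3:**
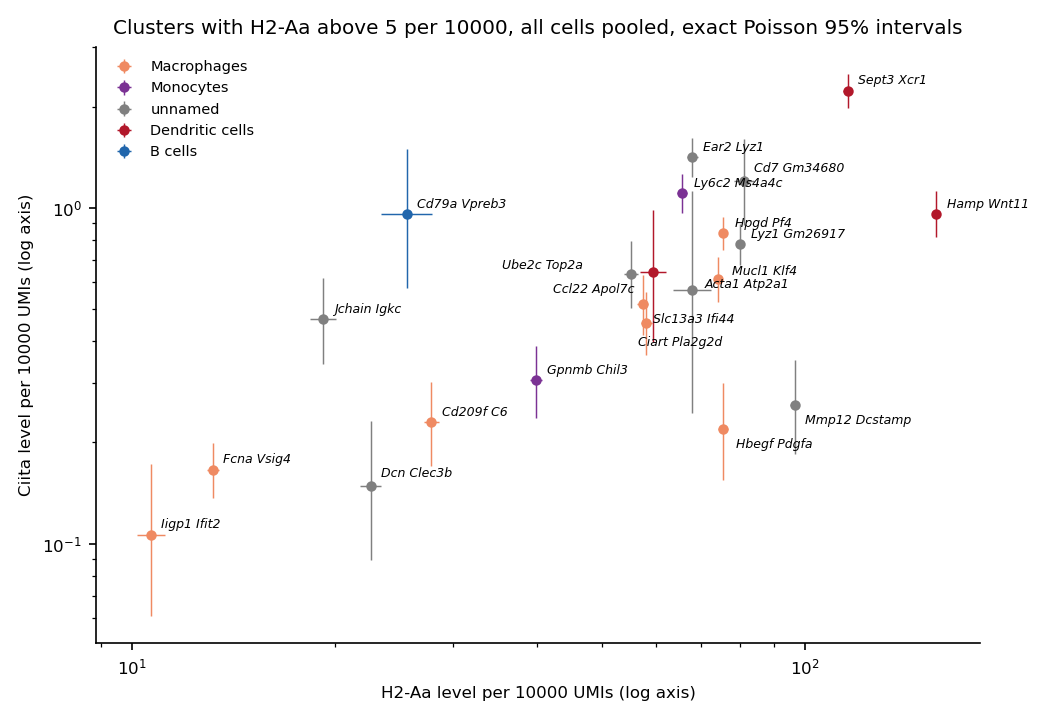
Level of Ciita against level of H2-Aa (UMIs per 10000 UMIs, log axes) in the clusters with an H2-Aa level above 5, each point a cluster summed over all libraries, with exact Poisson 95% intervals that cover counting error only. Macrophage clusters at H2-Aa levels of 75.5 and 75.6 sit at Ciita levels of 0.840 and 0.219, and the dendritic cell cluster led by Xcr1 and Clec9a sits at 2.23.

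Time of day was tested by a cosine of 24 h in each type. In macrophages the H2-Aa level was 46.1, 33.7 and 47.2 at ZT2, 67.9, 73.4 and 60.7 at ZT6, 46.4, 44.3 and 84.7 at ZT10, 15.8, 53.9 and 60.4 at ZT14, 33.9, 25.9 and 64.1 at ZT18, and 20.6, 52.6 and 64.6 at ZT22. The ZT6 mean was the highest (67.4 ± 6.37 SD), but at ZT10 to ZT22 the libraries of a time differed by as much as the times did (SD 20.1 to 24.1). The fitted amplitude of H2-Aa was 0.35 on the log2 scale (jackknife SE 0.20) with a peak at 7.5 h, and it was not called (edgeR, adjusted p = 0.530).

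None of the 7 genes tested in macrophages was called, where 0.499% of all genes were. Amplitudes ran from 0.26 for H2-DMa to 0.40 for H2-Ab1, against a median of 0.17 over all genes tested, peaks lay between 4.2 h for Ciita and 7.8 h for H2-Eb1, and adjusted p ran from 0.469 to 0.756, with none of the 7 under an unadjusted p of 0.05. This result turned on the filter on low counts: without it, 17127 genes in place of 8420 entered the fit and 5 of the 9 were called, H2-Aa, H2-Ab1, H2-Eb1, Cd74 and H2-DMb1, at nearly the same amplitudes (0.35 for H2-Aa, adjusted p = 3.13e-04). The share of all genes called without the filter is not given here, so the 5 calls are not set against it. DESeq2 with its own filter called none of the 9 in macrophages. In the same cells 6 of 6 clock genes were called, with a median amplitude of 1.60, and Nr1d2, a repressor of the clock, had 1.73 (adjusted p = 3.87e-09).

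**Figure D4:**
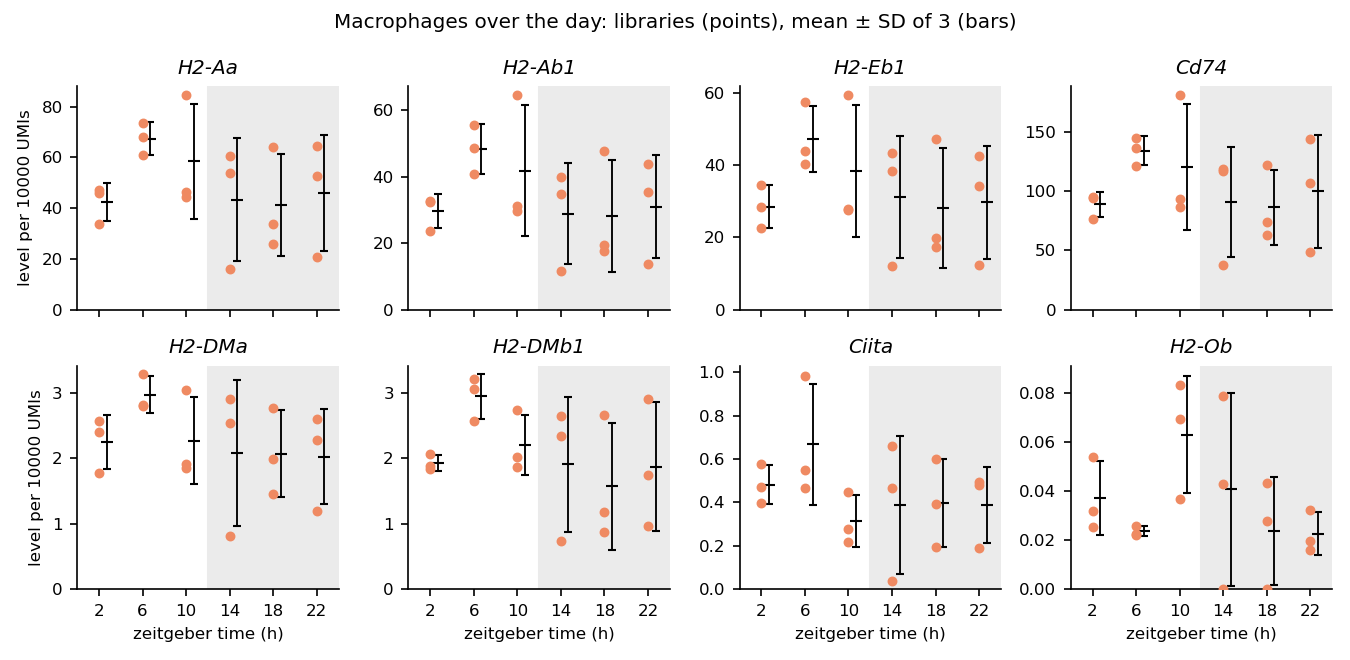
Level of the genes in macrophages (UMIs per 10000 UMIs) by zeitgeber time in hours, with points for the 3 libraries of a time, bars for their mean ± SD and the dark hours shaded. H2-Oa, at 0 throughout, is left out. At ZT6 the 3 H2-Aa values lie between 60.7 and 73.4, and at ZT14 they spread from 15.8 to 60.4.

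The other types gave no call either. In dendritic cells, where 0.0% of all genes were called (0 of 2481, with 109 at an unadjusted p under 0.05), the 9 amplitudes were 0.03 to 0.29. In the 6 monocyte libraries, where 0.0% of all genes were called, 7 genes were tested and none was called, and no clock gene entered the fit in either type. In fibroblasts, where 13.7% of all genes were called, 6 of the 9 were tested, with amplitudes of 0.06 to 0.25 and a lowest adjusted p of 0.591.

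Summed over all kept cells of a library, 0 of the 9 were called, where 5.44% of all genes were, but 6 of 9 had an unadjusted p under 0.05. H2-Aa came nearest, with an amplitude of 0.36 (jackknife SE 0.13), a peak at 5.7 h and an adjusted p of 0.0603, followed by H2-Ab1 (0.36, adjusted p = 0.0687). Its mean level in whole libraries was 8.92 ± 0.723 (SD) at ZT2, 9.0 ± 3.73 at ZT6, 7.46 ± 0.878 at ZT10, 6.60 ± 1.16 at ZT14, 5.65 ± 0.930 at ZT18 and 6.07 ± 1.63 at ZT22. The ZT2 and ZT18 libraries did not overlap, and those of ZT6 spread from 6.47 to 13.3. DESeq2 called 4 of them, H2-Aa (adjusted p = 0.0111), H2-Ab1 (0.0161), H2-Eb1 (0.0450) and Cd74 (0.0498). The share of all genes that DESeq2 called is not given here. Macrophages, dendritic cells and monocytes together made up 16.1%, 20% and 16.3% of kept cells in the ZT2 libraries. Their share was 9.60%, 11.1% and 6.55% in the ZT18 libraries. It was 11.5%, 15.2% and 9.98% at ZT6, where the H2-Aa mean was highest, and 17.8%, 12.5% and 8.33% at ZT10. At ZT14 the share was 24.3%, 14.2% and 9.69%, and at ZT22 18.04%, 11.1% and 10.9%. ZT14 replicate 1 had the highest share of any library, at a time with an H2-Aa mean of 6.60. Within macrophages the H2-Aa levels of ZT2 (33.7 to 47.2) lay inside those of ZT18 (25.9 to 64.1). The part of the cell shares in the whole-library values was not tested.

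Fibroblasts had few class II UMIs. Cd74 had a level of 0.0173 to 0.122 in fibroblasts (median 0.0709, mean 0.0706 ± 0.0291 SD, n = 18) and of 0 to 0.202 in muscle cells (median 0.0305, 5 of 17 libraries at 0). At 3000 UMIs per cell 1.83% of fibroblasts and 1.72% of muscle cells (95% Clopper-Pearson interval 0.893% to 2.99%) had a Cd74 UMI, and unthinned 11.9% and 3.40% did, with median depths of 22187.5 and 6602 UMIs. For H2-Aa the thinned shares were 1.04% and 0.717%. Both were inside the counting intervals of muscle cells. These intervals pool the cells of all libraries, so a share inside or outside them is a description and not a test. H2-Eb1 was outside, at 1.23% of fibroblasts against 0.287% of muscle cells (0.0348% to 1.03%), which is 2 muscle cells. H2-DMb1 was inside at 3000 UMIs, 0.490% against 0% (up to 0.528%), and outside at 5000 UMIs, 0.773% against 0% (up to 0.738%).

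In the fit, 2 of 9 genes were higher in fibroblasts than in muscle cells, where 53.3% of all genes were called in that direction and the median log2 difference of all genes was 0.96. They were H2-Eb1 (log2 1.09 ± 0.45 SE, adjusted p = 0.0213, 1220 against 9 UMIs) and H2-DMb1 (2.75 ± 1.00, adjusted p = 0.0103, 468 UMIs against 1). In muscle cells H2-Eb1 was at 0 in 11 of 17 libraries and H2-DMb1 in 16 of 17. Both calls thus rest on muscle counts near the floor, and their sizes are poorly fixed. H2-Aa was at -0.10 ± 0.40 (adjusted p = 0.823), Cd74 at 0.22 ± 0.34 (adjusted p = 0.560) and H2-DMa at -0.34 ± 0.55 (adjusted p = 0.579). With the size factors of DESeq2 in edgeR, H2-Aa was at 0.54 and H2-DMa at 0.30, so their sign turned, and Cd74 was called higher in fibroblasts (0.87, adjusted p = 0.0179), as it was by DESeq2 (0.81, adjusted p = 0.0329). The markers of macrophages summed to a level of 0.184 to 0.438 in fibroblast libraries and of 0.0304 to 1.13 in muscle libraries.

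Of the Cd74 UMIs of fibroblasts, 65.1% were in the 1277 cells that had 1 each, and 18.2% in the 157 cells with 2 to 9. The 8 fibroblasts with 10 or more Cd74 UMIs, 0.0659% of all of them, held 16.7% of the Cd74 UMIs of fibroblasts. All 8 also had UMIs of Col1a1, a collagen of fibroblasts, of H2-Aa and of Lyz2, a lysozyme of myeloid cells, and 4 had UMIs of Ptprc, the CD45 gene. Over the 18 libraries no relation was detected between the Cd74 level of fibroblasts and that of the other cells (Pearson r = 0.126, permutation p = 0.621, and Spearman rho = 0.0196, permutation p = 0.941). Without the 2 libraries farthest from the median, r was 0.0413. For Lyz2 the same relation gave r = 0.337 (permutation p = 0.171) and rho = 0.298, with r = 0.0887 without the 2 farthest libraries, and adjusted over the 2 relations the lower p was 0.342.

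The mixture of class II UMIs in fibroblasts differed from that in the other cells. H2-DMa and H2-DMb1 together made up 9.0% to 25.2% of the UMIs of the 9 genes in fibroblasts (median 16.03%), against 1.45% to 2.27% in macrophages (median 1.96%) and 1.92% to 3.19% in all other cells of the library (median 2.54%). Fibroblasts were above both in 18 of 18 libraries. Summed over all libraries, H2-DMa made up 6.38% in fibroblasts and 1.04% in macrophages, and H2-DMb1 7.50% and 0.944%. In muscle cells the share of both was 11.7%, from 9 of 77 UMIs (95% Clopper-Pearson interval 5.49% to 21.0%), of which 8 were of H2-DMa and 1 of H2-DMb1. In the barcodes outside the cell filter the share of both was 2.33%, from 841 of 36150 UMIs (2.17% to 2.49%). H2-DMa overlaps Brd2, a gene that all cell types use, on the opposite strand and CR974462.3 on the same strand. H2-DMb1 overlaps no annotated gene. The part of the H2-DMa overlaps in the H2-DMa share was not tested.

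**Figure D5:**
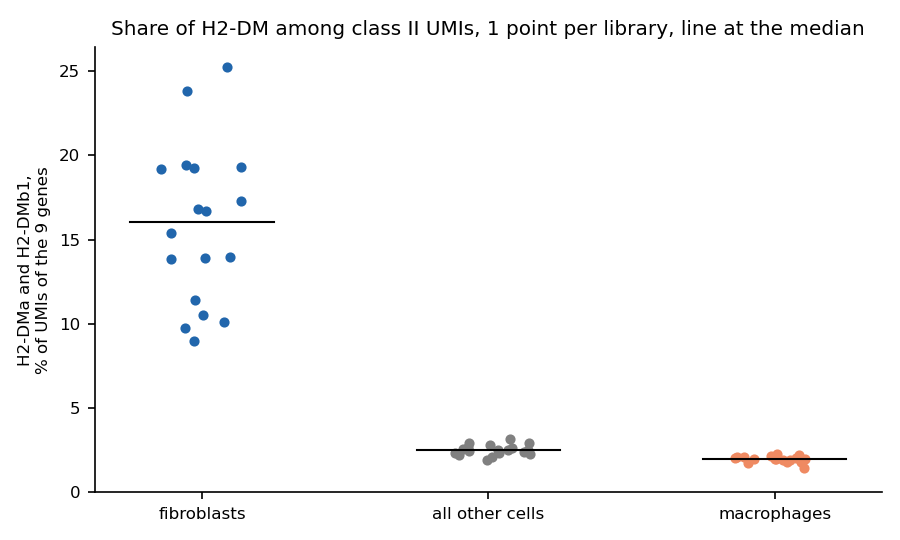
Share of H2-DMa and H2-DMb1 in the UMIs of the 9 genes (percent), with a point for each of the 18 libraries and a line at the median, in fibroblasts, in all other cells and in macrophages. The fibroblast values, 9.0% to 25.2%, lie above the others in every library.

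The 9 genes lie on 3 chromosomes of the mm10 build with which the counts were made. H2-Oa (chr17:34092340-34095234, plus strand), H2-DMa (chr17:34119541-34139101, plus), H2-DMb1 (chr17:34153072-34160230, plus), H2-Ob (chr17:34238903-34254414, plus), H2-Ab1 (chr17:34257689-34269419, plus), H2-Aa (chr17:34282744-34287823, minus) and H2-Eb1 (chr17:34305867-34316674, plus) form the class II region of chromosome 17. Ciita is at chr16:10480059-10528418 and Cd74 at chr18:60803848-60812652, both on the plus strand. Besides Brd2 and CR974462.3, H2-DMa overlaps CR974462.4 and Gm20493. Ciita overlaps Dexi, H2-Eb1 overlaps Gm20513, H2-Oa overlaps BC051537 and Cd74 overlaps Mir5107. H2-DMb1 has a close copy, H2-DMb2, and how the counting treated reads that match both was not tested.

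Other lists of presentation genes held calls in both directions between dendritic cells and macrophages, where 20.7% of all genes were called higher and 29.4% lower in dendritic cells. Of 8 genes of lysosomal processing, which cut antigen and the invariant chain, 1 was higher in dendritic cells and 5 were lower, with a median log2 difference of -3.18. Ctsb, cathepsin B, was at -3.89 ± 0.17 (SE), Ctsc, cathepsin C, at -3.01 ± 0.19 and Lgmn, the asparagine endopeptidase, at -3.35 ± 0.21. Of 12 genes of the promoter complex and of Ciita control, 5 were higher and 3 lower (median 0.33), with the myeloid factor Spi1 at 0.38 ± 0.12 and Irf8 at 0.50 ± 0.18 higher and Irf1 at -1.96 ± 0.24 lower.

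All 5 paralogs and genes of class II turnover differed, 3 higher and 2 lower in dendritic cells. Cd83, which keeps class II on the surface, was at 1.26 ± 0.19 (SE), H2-DMb2 at 6.43 ± 0.33, and March1, a ubiquitin ligase that removes class II from the surface, at -0.79 ± 0.17. Of 5 costimulation genes tested 3 were higher, Icosl by 2.05 ± 0.24, while Cd86 (-0.30 ± 0.13, adjusted p = 0.0554) and Cd40 (-0.51 ± 0.28, adjusted p = 0.120) missed the threshold. Of 10 genes of class I presentation 3 were higher and 3 lower (median -0.20), shares near those of all genes, B2m by -0.82 ± 0.23 and H2-K1 by -0.72 ± 0.22. In the time fits the genes of these lists that were called were Nfya (amplitude 0.19, adjusted p = 0.0310), Irf4 (0.33, adjusted p = 0.0255) and Icosl (0.73, adjusted p = 0.0150), all in fibroblasts, where 13.7% of all genes were called.

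The genes whose pattern was most like the mean of H2-Aa, H2-Ab1, H2-Eb1 and Cd74 depended on the samples. Over the 36 sums of macrophages, dendritic cells and monocytes they were Gas5 (r = 0.899), Rpl35a (0.888), Rps21, Rps4x, Rpl37a, 2410006H16Rik, Rps3a1, Rps27, Rps9 and Rps12 (0.863), mostly genes of ribosomal proteins. H2-DMa (0.95) and H2-DMb1 (0.933) were nearer than all of them, and Ciita (0.805), H2-Oa (0.812) and H2-Ob (0.790) were not. Over the 18 macrophage sums alone they were Clk1 (0.890), Btg2 (0.878), Clec4b1 (0.858), Jund, Serpinf1, Mcl1, 2410006H16Rik, Atp2b1, Chd3 and 1810026B05Rik (0.810). These r are descriptions over sums that share libraries, depth and cell types.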

How the data were processed

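The authors aligned and counted the 10x libraries with Cell Ranger 3.1.0 on mm10 and deposited raw UMI counts per gene and barcode for each of the 18 mice. Barcodes with 850 to 7800 genes and under 13% mitochondrial UMIs were kept, the study's own ranges, without its batch integration. Cells were clustered with scanpy 1.11.5 (2000 variable genes, 30 components, Leiden resolution 0.8, and 1.5 for immune cells), leaving out 66 class II and class I presentation genes. A cluster was named from at least 3 detected markers, a marker being detected in 25% of cells at 10% or more of its highest cluster level, a rule set after the clusters were seen, and 1329 cells stayed unnamed. Doublets were left in, and removing the 219 cells with the highest doublet scores was an alternative. UMIs were summed per library and type. edgeR 4.0.16 (quasi-likelihood, TMM, filterByExpr, Benjamini-Hochberg over all genes tested, threshold 0.05) tested a 24 h cosine. With library as a block, it tested differences between types in 1 fit. DESeq2 1.42.0 was an alternative. On simulated data, the edgeR time fit was tried for macrophages and fibroblasts, and an edgeR fit of dendritic cells against macrophages alone. DESeq2, the other time fits and the fit over all types were not tried on simulated data. The study's JTK_Cycle test was not repeated. Each mouse is 1 replicate. Replicate numbers follow the collection day given in the titles, but same-numbered libraries deviated together only weakly (median correlation 0.0230 in macrophages and 0.0476 in fibroblasts, against -0.0172 and -0.0271 for different numbers). Intervals of shares, levels and ratios of UMIs cover counting error only. Those of log2 differences come from the SE of the edgeR fit, which takes in variation between libraries. The text names the 9 genes, from each list the genes called in a time fit and the 3 with the highest level in macrophages or dendritic cells, and the 10 genes most alike. The genes and lists were chosen with earlier results of these data known, and single cells with 10 or more Cd74 UMIs and the Lyve1 division were chosen after values were seen.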

Additional observations from a re-analysis of the deposited data

Results flagged for a closer look

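Signal of the 9 genes was also found in cells that entered no comparison. Some clusters that no marker list named held H2-Aa at levels above the macrophage mean of 49.8, while the unnamed cells together had a level of 37.1, in UMIs per 10000 UMIs summed over all libraries. The level was 68.0 in the 149 cells led by Ear2 and Lyz1, 80.1 in the 138 cells led by Lyz1 and Gm26917, 96.5 in the 65 cells led by Mmp12 and Dcstamp, and 81.2 in the 26 cells led by Cd7 and Gm34680. The first of these had Ciita at 1.42 and H2-DMa at 8.41, above the dendritic cell mean of 7.14 for H2-DMa, and the cluster led by Mmp12 had Ciita at 0.259. The cluster led by Cd7 had H2-Oa at 0.641. The unnamed cells together held 27.0% of all H2-Aa UMIs of kept cells.

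The 7113 barcodes outside the filter on genes and mitochondrial share had a Cd74 level of 3.64, a Ciita level of 0.0952, against 0.0715 over the kept cells, and an H2-Oa level of 0.00118. These values were above the limit that a count of 0 allows.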

How the results depend on the processing

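Each of the 9 genes called between dendritic cells and macrophages kept its call in its 28 alternatives. Monocytes limited the rest, with 6 libraries. Of the log2 differences between types, 1207 values kept their side of the threshold, 44 lost the call and 2 gained it. Another 7 turned sign where the main fit or the alternative called the gene. Turns of sign in genes that neither fit called were counted among the 1207. With the replicate block, 0 of the 9 genes were called in each of the 5 time fits, as without it. Putting the replicate block in place of the library gave 3 genes in macrophages against monocytes. In that comparison DESeq2 called 2, no library block 3, finer clusters 0 (H2-Ab1 turned to 0.16 and H2-Eb1 to 0.055), and leaving out 1 library 3 to 6 (3 without ZT2 replicate 3). Dendritic cells against monocytes gave 8 to 9 with 1 library left out. For fibroblasts against muscle cells DESeq2 called 6 (Ciita turned to -2.94, H2-Oa to -5.18 and H2-Ob to -5.22). These 3 genes had 0 UMIs in all 736 muscle cells, so their values are no measure of size or direction. Their calls add no support to the 6. In the same comparison no library block and at least 20 cells called 1 each. Without ZT2 replicate 3 and ZT14 replicate 1, chosen after the cells were counted, H2-Ob turned to 7.16 in macrophages minus monocytes and to -0.55 in monocytes minus fibroblasts, where 8 genes were called; its monocyte libraries were then all at 0, so these values are no measure of size. Over all fits without 1 or 2 libraries its range was -0.40 to 7.16 and -0.55 to 6.92.

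The time fit of macrophages called 5 without the filter on low counts, and the Lyve1 and Timd4 clusters alone called 6 without it and 0 with it. Monocytes in finer clusters gave 1 (Ciita, 4 libraries). Whole libraries gave 4 with DESeq2 and 0 to 2 with 1 library left out. The shares of all genes called in these alternatives are not given here, so the calls are not set against them. The r of fibroblast Cd74 was 0.133 without doublets, 0.0413 without the 2 farthest libraries and 0.00904 to 0.243 with 1 library left out, and that of Lyz2 0.224 to 0.459. The dendritic cell time fit with at least 20 cells was not run, since 3 libraries remained. The causes were not tested.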

Other observations

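T cells, NK and innate lymphoid cells and neutrophils had low class II levels beside those of B cells (H2-Aa 25.6, Cd74 74.9), in UMIs per 10000 UMIs summed over all libraries. H2-Aa was at 2.59 in the 86 T cells, at 1.62 in the 147 neutrophils and at 0.224 in the 90 NK and innate lymphoid cells, and Ciita was at 0 in T cells and in NK and innate lymphoid cells. In T cells the Cd74 level of 5.56 rested on few cells, since 20.9% of them had a Cd74 UMI.

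An unnamed cluster of 84 cells led by Arg1 and Csf2 had H2-Oa at a level of 0.517 with H2-Aa lower, at 0.300. All unnamed cells together held 73 H2-Oa UMIs. The cluster values pool cells of 18 libraries and have no replicate error.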
